A study of Mus musculus with 6 samples.

Results

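H19 and 8 genes of the insulin-like growth factor (IGF) system were examined in tumor-associated endothelial cells (TECs): the ligands Igf1 and Igf2, the receptors Igf1r and Igf2r, and the binding proteins Igfbp3, Igfbp4, Igfbp5 and Igfbp7. The 9 rows were found by gene name among 23473 RefSeq rows of a table of 56826 rows, and the genes were chosen by how their levels differed between the groups described here. Their group differences are therefore given as a description, with no test. TECs were CD31+ cells taken by magnetic beads from subcutaneous Lewis lung carcinoma (LLC) tumors, LLC being a mouse lung tumor line, in C57BL/6 mice of 8 weeks. The Ctrl group held 3 libraries from mice labelled wild type. The NICeCA group held 3 libraries from mice that carried Cdh5 cre ERT2 and a Rosa26 flox-stop-flox Notch1 ICD allele, in which tamoxifen lets cells with an active Cdh5 promoter make the Notch1 intracellular domain from the Rosa26 locus. The labels do not say whether Ctrl mice carried the Cre allele, whether they received tamoxifen or how many tumors went into a library. They state that tumors were taken on different days without the day of each library, whereas the study's methods name a single day after inoculation.

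In mammals, H19 is a noncoding RNA made from the maternal chromosome, and its neighbour Igf2 is made mainly from the paternal one. The pair share an imprinting control region, and H19 is the precursor of miR-675. IGF1 and IGF2 signal through the IGF1 receptor, the IGF2 receptor takes IGF2 up for breakdown, and the binding proteins hold IGFs in the extracellular space, where several of them also act without IGF. Endothelial cells are a known source of IGFBP3, IGFBP4 and IGFBP7.

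H19 holds 2 mature miRNAs in one hairpin, and their letters are shown here because the hairpin has its own row in the table. The sequences are those of RefSeq on GRCm38.p6, read 5′ to 3′ on the minus strand of chromosome 7, with the seed (bases 2 to 8) in capitals.
mmu-miR-675-5p: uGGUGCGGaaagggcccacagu
mmu-miR-675-3p: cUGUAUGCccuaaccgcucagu
The first lies at chr7:142577112-142577133 and the second at chr7:142577078-142577099. Neither seed is shared with another of the 1679 mature miRNAs in the table of mouse sequences. The reverse complement of each seed was searched in the longest annotated 3′ UTR of the 8 coding genes. Igf1r held 2 matches to the miR-675-3p seed in a UTR of 7267 bases, and the other 7 UTRs held none for either miRNA. The matches are printed with their flanks, the seed match in capitals.
Igf1r, base 505 of the UTR: catcaccccGCATACAcctgcctg
Igf1r, base 1264 of the UTR: gaaacatttGCATACAcatcgtct
Of 189 mouse UTRs within 10% of that length, 35.4% held at least 1 such match.

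Of the 9 genes, H19 was the furthest below Ctrl in RPKM (reads scaled to row length and library depth) in the NICeCA libraries, on the log2 scale. Its row lies at chr7:142575532-142578146 on the minus strand (GRCm38), is annotated as a lincRNA, and has a length of 2615 bases that equals its span, so reads in its short introns were counted as well. The 3 Ctrl libraries read 78.6, 107 and 61.5 RPKM, and the 3 NICeCA libraries read 28.1, 22.02 and 32.3 RPKM. Every NICeCA library was below every Ctrl library, and the Ctrl libraries spread more widely than the NICeCA ones. The means were 82.4 ± 23.0 (SD, n = 3) and 27.4 ± 5.14 RPKM (SD, n = 3), a ratio of 3.003, and the difference in log2(RPKM + 1) was -1.53 with an SE of 0.28. These levels rest on 6275 to 11157 reads in Ctrl and 2033 to 3141 reads in NICeCA libraries, so counting error was small beside the spread between libraries. Of the 9 genes, 7 passed the filter of a mean of 1 RPKM. NICeCA libraries lay wholly below Ctrl libraries for H19, Igf1 and Igf1r, and wholly above them for Igfbp3 and Igfbp5. Among the 12320 RefSeq rows past the filter the same held for 24.4% (below) and 16.5% (above), and limma (adjusted p under 0.05) called 7.68% of rows lower and 5.88% higher. The genes were selected on this contrast, so nothing is read from their share.

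**Figure D1:**
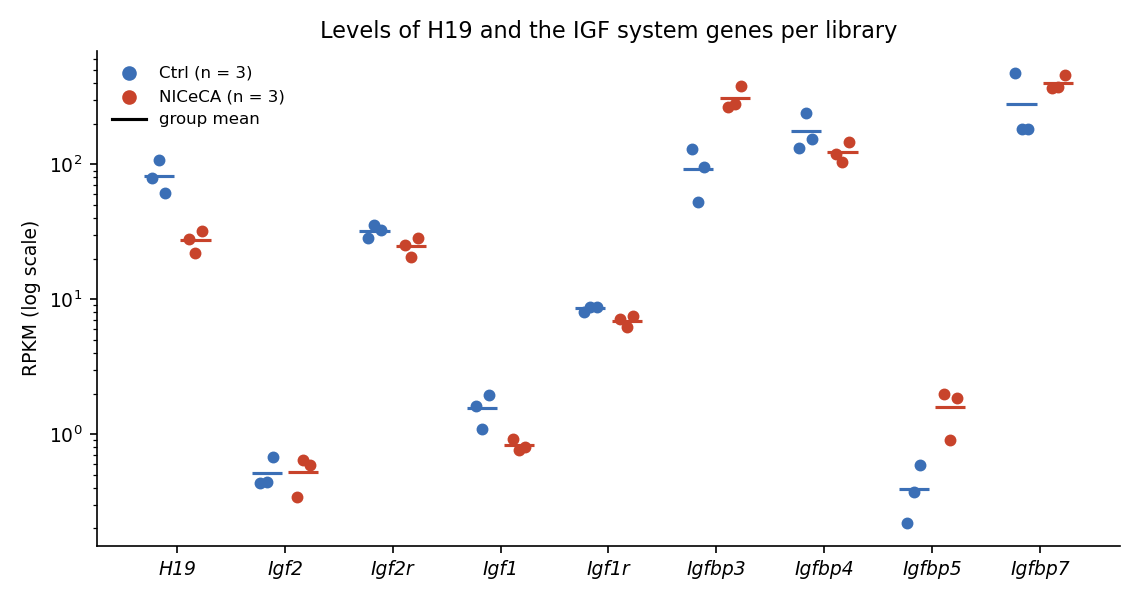
RPKM of the 9 genes on a log axis, with 1 point per library (blue, Ctrl; red, NICeCA; n = 3 each) and a bar at each group mean. H19 sat at 61.5 to 107 in Ctrl and 22.02 to 32.3 in NICeCA libraries, Igfbp3 was higher in NICeCA libraries, and the Igf2 points of the groups overlapped.

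The CD31+ fractions held RNA of several cell types. The endothelial markers were well detected, with a summed level of 206 to 558 RPKM over 12 genes in Ctrl and 469 to 619 RPKM in NICeCA libraries. However, the macrophage gene Lyz2 read 2611 to 5555 RPKM against 47.6 to 154 RPKM for the endothelial gene Pecam1, although the labels give a purity above 90%. Csf1r, another macrophage gene, read 91.6 to 159 RPKM. Summed fibroblast markers (10 genes) were 396 to 670 RPKM in Ctrl and 190 to 371 in NICeCA libraries, pericyte markers (9 genes) were 33.4 to 47.7 and 64.1 to 118, neutrophil markers (7 genes) were 117 to 268 and 591 to 1640, macrophage markers (7 genes) were 6274 to 9214 and 4189 to 7859, epithelial markers (6 genes) were 6.86 to 12.6 and 6.50 to 8.83, and T and NK cell markers (7 genes) were 38.9 to 54.7 and 31.3 to 46.4. No marker was at 0 in all libraries. Fibroblast, pericyte and neutrophil sums thus separated the groups without overlap. The macrophage sums overlapped, but Lyz2 made up most of them, at 5555 of 9214 RPKM in Ctrl replicate 1. Within that list Cd68 and Mrc1 were wholly above Ctrl in NICeCA libraries, while C1qa, C1qb, C1qc, Csf1r and Lyz2 had lower means and overlapped. The epithelial sums overlapped too, and Cdh1 held 7.73 of 12.6 RPKM in Ctrl replicate 3. Of the epithelial markers, Krt18 was wholly below Ctrl in NICeCA libraries, at 3.46, 4.86 and 4.25 against 1.17, 1.19 and 2.76 RPKM. Epcam, Cdh1, Krt7 and Krt8 had higher means, Krt19 had a lower mean, and all of these overlapped. The fibroblast markers did not all go the same way, since 5 of the 10 were wholly below Ctrl in NICeCA libraries while Col1a1, Col1a2 and Postn had higher means and Postn was wholly above. Most of their sum came from the collagen gene Col3a1, at 270.1 of 396 RPKM in Ctrl replicate 1 and 103 of 190 RPKM in NICeCA replicate 2, so ratios to this sum rest largely on that gene. In bulk RNA, fewer cells of a type and less RNA per cell cannot be told apart. Notch1 read 12.1 RPKM on average in Ctrl and 12.8 in NICeCA libraries, while the Notch targets Nrarp (10.1 and 20.48 RPKM) and Hey1 (3.67 and 8.87 RPKM) were above all Ctrl values in every NICeCA library. Hes1, another Notch target, was at 9.88 and 8.54 RPKM, with overlapping groups.

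The group with higher H19 levels also had the higher fibroblast sums. Within the NICeCA group the libraries had the same order in both, and within the Ctrl group the order differed in part. Ctrl replicate 2, which had the highest H19 level, also had the highest fibroblast sum (670 RPKM) and the lowest mean of endothelial markers (geometric mean of 12.2 RPKM). In contrast, Ctrl replicate 3 had a higher fibroblast sum than Ctrl replicate 1 (463 and 396 RPKM) and less H19 (61.5 and 78.6 RPKM). NICeCA replicates 2, 1 and 3 had rising sums of 190, 241 and 371 RPKM, with H19 at 22.02, 28.1 and 32.3 RPKM. Relative to the fibroblast sum, H19 was at 19.8%, 15.98% and 13.3% in Ctrl and at 11.6%, 11.6% and 8.70% in NICeCA libraries. The groups still did not overlap on that scale, and the log2 difference shrank from -1.53 to -0.62. Relative to the endothelial markers the H19 difference grew to -2.34, with ratios of 2.45, 8.82 and 3.92 in Ctrl and 1.09, 0.613 and 0.961 in NICeCA libraries. H19 was therefore lower in NICeCA libraries on each of the 4 scales used. Endothelial and pericyte markers were themselves higher on average in NICeCA libraries, so ratios to them could only widen the H19 difference, to -2.34 and -2.62. Those 2 scales thus add nothing to its direction. The part of the fibroblast markers in the H19 difference was not tested.

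The miR-675 hairpin lay wholly within an H19 exon and its row shared the H19 reads. This row of 84 bases read 53.7, 90.9 and 47.6 RPKM in Ctrl and 13.4, 13.8 and 21.4 RPKM in NICeCA libraries, from 156 to 304 and 41 to 67 reads. Its level per H19 level was 0.683, 0.848 and 0.774 in Ctrl and 0.477, 0.628 and 0.664 in NICeCA libraries, without overlap but with a narrow gap. The nearest values, 0.683 in Ctrl replicate 1 and 0.664 in NICeCA replicate 3, rest on 176 and 67 hairpin reads. Counting error at such read numbers is larger than that gap, so nothing is read from this separation. Mature miRNAs were not measured on their own, so the row speaks of the H19 transcript around the hairpin and not of mature miR-675. Another gene model over H19, a FANTOM3 transcript of 2252 spliced bases, gave 67.2 to 117 RPKM in Ctrl and 23.9 to 35.1 RPKM in NICeCA libraries. A shorter model of 866 bases at the 3′ end gave 56.7 to 86.3 and 21.0 to 29.5 RPKM. All 3 models of H19 thus separated the groups.

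Igf2, whose row lies 72.6 kb upstream of the H19 row, was almost silent, and its RPKM did not follow that of H19. Its row (chr7:142650768-142661035, minus strand) read 0.435, 0.445 and 0.678 RPKM in Ctrl and 0.343, 0.642 and 0.590 RPKM in NICeCA libraries. Those values came from 53 to 112 reads a library, and the groups overlapped. The means were 0.519 ± 0.138 and 0.525 ± 0.160 RPKM (SD, n = 3 each), and the log2 difference was 0.00 with an SE of 0.12. H19 exceeded Igf2 by a ratio of 181, 241 and 90.8 in Ctrl and 81.8, 34.3 and 54.7 in NICeCA libraries. The FANTOM3 model over Igf2 gave 0.696 to 1.02 RPKM in Ctrl and 0.589 to 0.947 in NICeCA libraries, which overlapped in the same way. Relative to marker levels the log2 difference of Igf2 was -0.78 with endothelial, 0.95 with fibroblast and -1.06 with pericyte markers, and only on the last of these scales did the groups not overlap, at 1.08%, 1.33% and 1.42% in Ctrl and 0.452%, 1.00% and 0.500% in NICeCA libraries.

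The other rows within 100 kb of H19 or Igf2 are shown in the map of the locus. On the Igf2 side the antisense Igf2as and the insulin gene Ins2 were below 0.2 RPKM in every library, and Mir483, the hairpin inside Igf2, had a single read in 1 NICeCA library. On the far side of H19, Nctc1, a noncoding RNA, was also below 0.2 RPKM. Mrpl23, a mitochondrial ribosomal protein gene, was at 28.3 ± 2.14 RPKM in Ctrl and 35.3 ± 6.30 RPKM in NICeCA libraries (limma adjusted p = 0.21). Lsp1, a leukocyte actin-binding protein gene, was at 56.5 ± 2.77 and 47.0 ± 2.66 RPKM (limma adjusted p = 0.15). Tnnt3, a muscle troponin gene, was at 1.77 ± 0.804 and 1.14 ± 0.572 RPKM (limma adjusted p = 0.34). Gm14492 passed the test, with 5.29, 7.84 and 4.23 RPKM in Ctrl against 1.56, 1.69 and 2.49 RPKM in NICeCA libraries (limma log2 fold change -1.20, SE 0.22, adjusted p = 0.022). Its row overlaps those of Tnnt3 and Lsp1 on the other strand, and it is not known if strand was used in counting, so its reads may be shared with them.

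**Figure D2:**
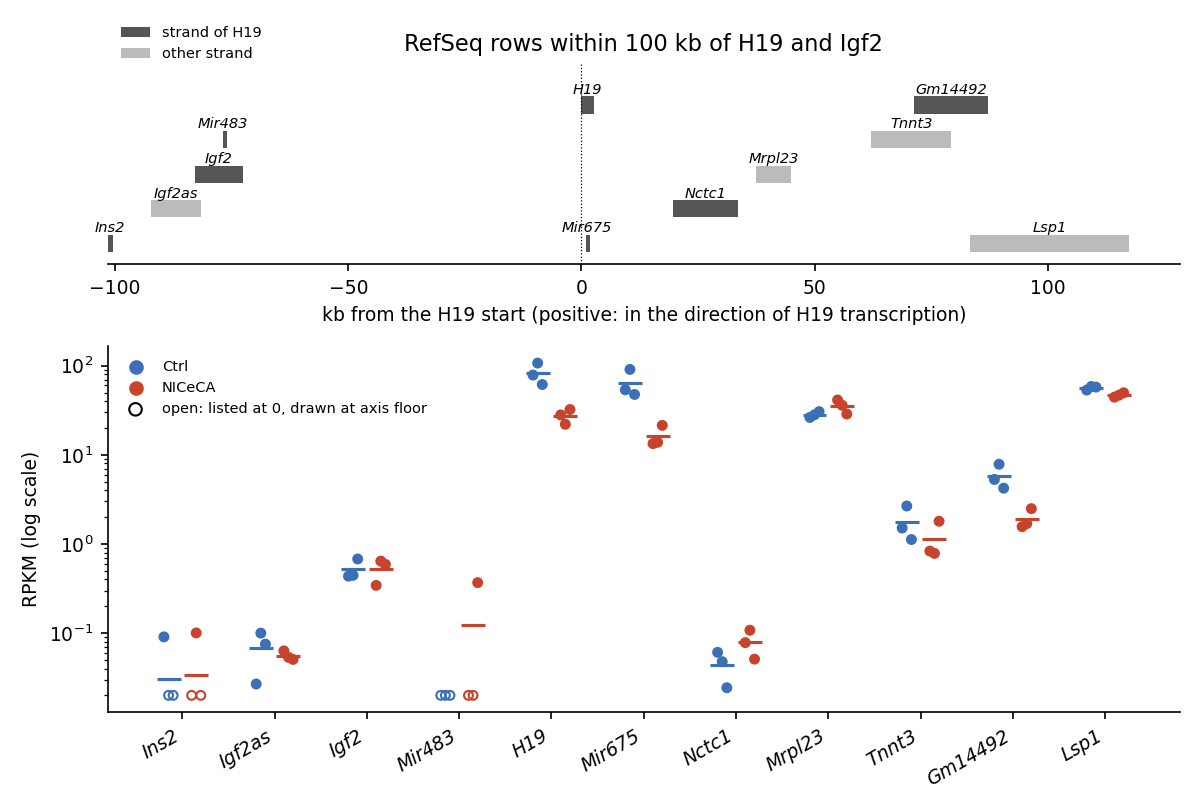
Upper panel, the rows within 100 kb of H19 and Igf2 by distance in kb from the H19 start (dark, H19 strand; light, other strand). Lower panel, their RPKM on a log axis, 1 point per library and a bar at each group mean; H19, Mir675, Gm14492 and Lsp1 had all NICeCA libraries below all Ctrl libraries, and Igf2, Igf2as, Ins2, Mir483 and Nctc1 were below 1 RPKM.

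Igf1, the other ligand, was low in both groups and lower in NICeCA libraries. Its row (chr10:87859056-87937047, plus strand) read 1.62, 1.09 and 1.95 RPKM in Ctrl and 0.922, 0.768 and 0.800 RPKM in NICeCA libraries, from 212 to 595 reads. The lowest Ctrl library was above the highest NICeCA library. The means were 1.55 ± 0.437 and 0.830 ± 0.0810 RPKM (SD, n = 3 each), and the log2 difference was -0.47 with an SE of 0.15, or -0.80 with a pseudocount of 0.1 in place of 1. Per summed fibroblast markers Igf1 was at 0.331% ± 0.146 in Ctrl and 0.334% ± 0.103 in NICeCA libraries (SD, n = 3 each), so on that scale the groups overlapped. Fibroblasts and macrophages are known sources of IGF1, and the part of either in the Igf1 level was not tested.

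Both receptors had lower means in the NICeCA group, and their ratio was nearly constant. Igf1r, the signalling receptor (chr7:67952257-68233667, plus strand), read 8.09, 8.81 and 8.83 RPKM in Ctrl and 7.12, 6.21 and 7.54 RPKM in NICeCA libraries. The groups did not overlap, and the log2 difference was -0.27 with an SE of 0.08. Igf2r, the uptake receptor (chr17:12682406-12769706, minus strand), read 28.2, 35.5 and 32.8 RPKM in Ctrl and 25.4, 20.7 and 28.6 RPKM in NICeCA libraries. Here the groups overlapped at a single pair of libraries, and the log2 difference was -0.36 with an SE of 0.16. Igf2r exceeded Igf1r by a ratio of 3.75 ± 0.272 in Ctrl and 3.56 ± 0.228 in NICeCA libraries (SD, n = 3 each), with overlapping groups. Relative to the fibroblast sum the direction turned for both, to 0.65 for Igf1r and 0.57 for Igf2r on the log2 scale, whereas relative to the endothelial markers it was -1.08 and -1.16.

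Igf2r is the target of another imprinted noncoding RNA, Airn, which runs over its promoter on the other strand and represses it in cis on the paternal chromosome. Airn read 6.92, 11.99 and 5.13 RPKM in Ctrl and 1.12, 2.55 and 3.11 RPKM in NICeCA libraries, and limma called it lower (log2 fold change -1.45, SE 0.32, adjusted p = 0.035). The Igf2r to Airn ratio was 4.08, 2.96 and 6.39 in Ctrl and 22.8, 8.11 and 9.20 in NICeCA libraries. The log2 difference of Igf2r itself depended on the scale. It was -0.36 in RPKM, -1.16 per endothelial, 0.57 per fibroblast and -1.43 per pericyte markers. Whether the level of Airn bears on that of Igf2r was not tested. The 6 FANTOM3 models on the Airn strand over Igf2r were also below Ctrl in every NICeCA library, with 5.48 to 16.5 RPKM against 1.30 to 4.74 RPKM. The annotated exons of Airn and Igf2r share 0 bases, but the span of the Igf2r row, introns included, overlaps that of Airn by 28396 bases. Unspliced Airn reads over Igf2r exons therefore cannot be told apart from Igf2r reads without strand.

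Igfbp7, Igfbp4 and Igfbp3 were the most abundant of the 9 transcripts, and the binding proteins differed in opposite directions. Igfbp3, the main carrier of IGFs in blood (chr11:7206091-7213923, minus strand), read 129.8, 52.7 and 96.3 RPKM in Ctrl and 265, 281 and 379.5 RPKM in NICeCA libraries. The lowest NICeCA library was above the highest Ctrl library by a wide margin. The means were 92.9 ± 38.7 and 309 ± 62.1 RPKM (SD, n = 3 each), a ratio of 3.32, and the log2 difference was 1.80 with an SE of 0.41. Igfbp3 also separated the groups per endothelial marker mean, at 4.04, 4.33 and 6.13 in Ctrl and 10.3, 7.83 and 11.3 in NICeCA libraries. Per summed pericyte markers it was at 322%, 158% and 202% in Ctrl and at 349%, 439% and 322% in NICeCA libraries, and the groups overlapped; the part of the pericyte markers was not tested.

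Igfbp5, which binds matrix as well as IGFs (chr1:72858065-72874865, minus strand), was low in Ctrl and higher in NICeCA libraries. It read 0.219, 0.373 and 0.587 RPKM in Ctrl and 1.97, 0.90 and 1.87 RPKM in NICeCA libraries, from 50 to 134 and 186 to 421 reads. All NICeCA libraries were above all Ctrl libraries, and the means of 0.393 ± 0.185 and 1.58 ± 0.591 RPKM (SD, n = 3 each) gave a ratio of 4.02. The log2 difference of 0.87 (SE 0.23) understates this ratio, since a pseudocount of 1 weighs on low values, and was 1.77 with a pseudocount of 0.1. Its mean over the 6 libraries of 0.986 RPKM left Igfbp5 just under the filter.

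Igfbp4, which mostly restrains IGF action (chr11:99041260-99052643, plus strand), read 133, 242 and 155 RPKM in Ctrl and 119, 104 and 147 RPKM in NICeCA libraries. The groups overlapped, and the log2 difference was -0.48 with an SE of 0.29. Igfbp7, a vessel-wall protein with weak IGF binding (chr5:77349240-77408045, minus strand), read 474, 182 and 184 RPKM in Ctrl and 370.0, 375 and 458.5 RPKM in NICeCA libraries. Its highest value was a Ctrl library, so these groups overlapped as well, with a log2 difference of 0.67 and an SE of 0.47. Igfbp7 stood close to the endothelial markers, and per marker mean it was at 14.7, 14.9 and 11.7 in Ctrl and 14.4, 10.5 and 13.7 in NICeCA libraries, a log2 difference of -0.11. Ctrl replicate 1, the library with the highest Igfbp7 level, also had the highest endothelial marker mean of its group (32.1 RPKM, against 12.2 and 15.7).

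Within each library the balance of the 4 binding protein mRNAs held more Igfbp3 and less Igfbp4 in the NICeCA group. Their summed level was 736, 477 and 436 RPKM in Ctrl and 756, 762 and 986 RPKM in NICeCA libraries. Igfbp3 made up 17.6%, 11.0% and 22.1% of it in Ctrl and 35.0%, 36.9% and 38.5% in NICeCA libraries. Igfbp4 made up 18.03%, 50.8% and 35.6% in Ctrl and 15.8%, 13.7% and 14.9% in NICeCA libraries. Both shares separated the groups, and the 3 NICeCA libraries were close to each other where the Ctrl libraries were widely spread. The shares are not independent, since each is divided by the same sum, which holds Igfbp3 and was itself wholly higher in NICeCA libraries. Igfbp4 levels in RPKM overlapped, so the lower Igfbp4 share is no separate result. Igfbp7 held 48.2% on average in both groups, and Igfbp5 stayed under 0.3% in every library.

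**Figure D3:**
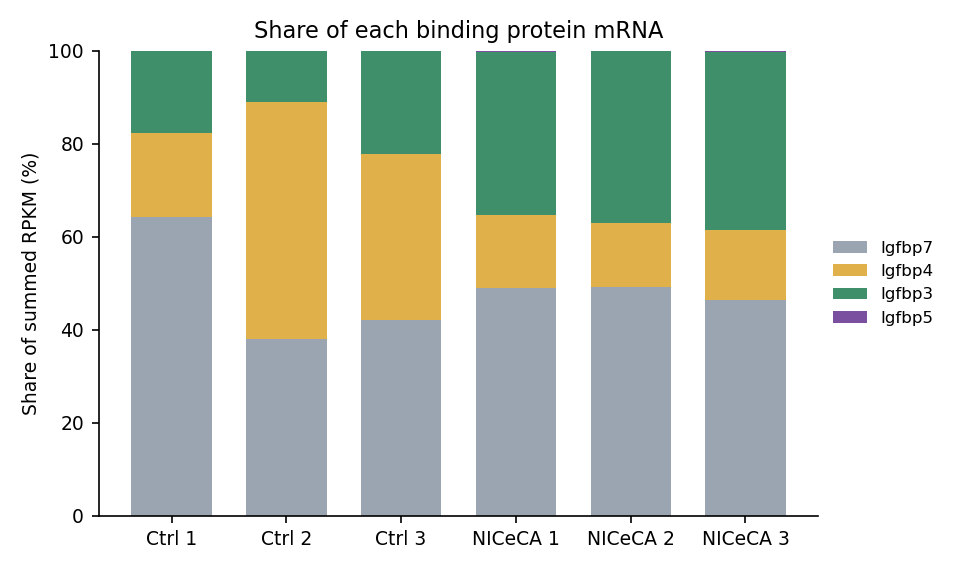
Share of each binding protein in the summed RPKM of Igfbp3, Igfbp4, Igfbp5 and Igfbp7, 1 stacked bar per library in percent. Igfbp3 (green) took 11.0% to 22.1% in Ctrl and 35.0% to 38.5% in NICeCA libraries, and Igfbp5 is too low to be seen.

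In Ctrl libraries the order of mean levels per length was Igfbp7, Igfbp4, Igfbp3, H19, Igf2r, Igf1r, Igf1, Igf2 and Igfbp5. In that order Igfbp7 and Igfbp4, Igfbp3 and H19, and Igf2 and Igfbp5 had overlapping ranges. In NICeCA libraries the order was Igfbp7, Igfbp3, Igfbp4, H19, Igf2r, Igf1r, Igfbp5, Igf1 and Igf2, where Igfbp7 and Igfbp3, H19 and Igf2r, and Igfbp5 and Igf1 overlapped. H19 was thus well above Igf2r in Ctrl libraries and level with it in NICeCA libraries.

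**Figure D4:**
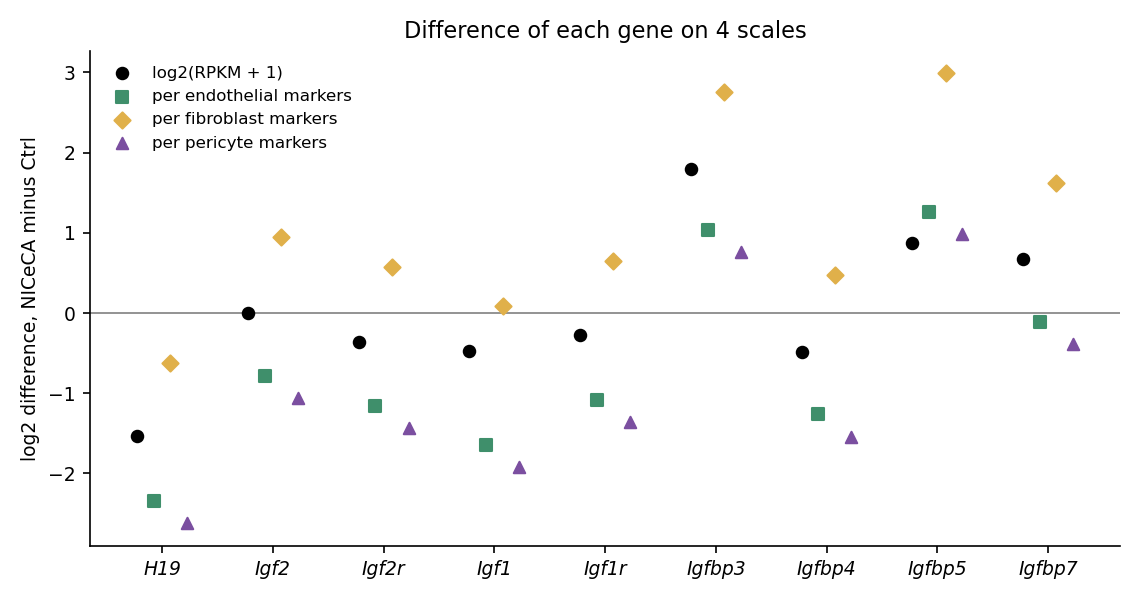
Log2 difference of each gene, NICeCA minus Ctrl (n = 3 each), as log2(RPKM + 1) and as the ratio to endothelial, fibroblast or pericyte markers of the same library. H19 was below 0 and Igfbp3 and Igfbp5 were above 0 on all 4 scales, while Igf2, Igf2r, Igf1, Igf1r, Igfbp4 and Igfbp7 lay on both sides of 0.

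The genes whose pattern over the 6 libraries was most like that of a member were found by Pearson's r of log2(RPKM + 1), as a description over libraries that share their group difference. For H19 they were Gphn, Ppp6r2, Adck5, Zfp251 and Mib2 (r of 0.995 to 0.998). Those 5 genes differed far less in size than H19, with Gphn at 4.54 to 5.73 RPKM in Ctrl and 2.90 to 3.26 RPKM in NICeCA libraries. For Igf1 they included Tia1, Dopey1, Ttc17 and Mlxip (r of 0.982 to 0.994), and for Igf2 they were Irf1, Nmd3, Tab3, Pnpt1 and Usp16 (r of 0.959 to 0.990).

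Of 54 other IGF system genes, 53 were in the table and 40 passed the filter. There limma called 3 higher and 7 lower, where it called 5.88% of all rows tested higher and 7.68% lower, and the median log2 fold change was -0.12, beside -0.05 over all rows tested. No other ligand and 1 other receptor passed the filter: Insr, the insulin receptor, was at 9.19 RPKM in Ctrl and 9.44 RPKM in NICeCA libraries (limma adjusted p = 0.83). Among other binding proteins Igfbp6 was at 11.0 and 7.51 RPKM (limma adjusted p = 0.23), and the IGFBP protease Htra1 was at 36.2 and 25.0 RPKM (limma adjusted p = 0.25). Stc1, an inhibitor of the protease that cleaves IGFBP4, rose from 6.94, 2.68 and 5.59 RPKM in Ctrl to 12.96, 15.98 and 14.03 RPKM in NICeCA libraries (limma log2 fold change 1.40, SE 0.27, adjusted p = 0.025). The protease genes Pappa and Pappa2 were almost silent and below the filter, with at most 0.0349 and 0.0497 RPKM in any library.

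Downstream of the receptors, 1 of 7 tested adaptors passed, in the lower direction. Irs1, a substrate of the IGF1 and insulin receptors, fell from 4.09 to 1.24 RPKM (limma log2 fold change -1.18, adjusted p = 0.038), and its relative Irs2, which did not pass, was at 23.0 and 33.1 RPKM (limma log2 fold change 0.51, adjusted p = 0.056). Of 18 genes of the PI3K-AKT-mTOR arm 1 was called higher and 4 were called lower, beside the same 5.88% and 7.68% of all rows. The lower ones were Pik3r2, a regulatory subunit of PI3K, at 32.4 and 14.1 RPKM (limma adjusted p = 0.032), Tsc2, an mTORC1 inhibitor, at 12.96 and 6.97 RPKM (0.031), the kinase Mtor at 7.29 and 4.73 RPKM (0.030) and Rptor, an mTORC1 subunit, at 13.1 and 8.22 RPKM (0.042). They thus included an inhibitor along with parts of the complex it restrains. Eif4ebp1, a repressor of translation that mTORC1 switches off, rose from 63.8 to 116.5 RPKM (limma adjusted p = 0.033), and Akt1 was at 61.6 and 56.2 RPKM (0.46).

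In the RAS-MAPK arm Map2k1, the kinase MEK1, rose from 40.5 to 68.9 RPKM (limma log2 fold change 0.77, adjusted p = 0.026), and the other 5 tested genes did not pass. Of the Igf2 mRNA binding proteins, Igf2bp3 fell from 3.57 to 1.46 RPKM (limma adjusted p = 0.039), and Igf2bp2 was at 11.1 and 5.33 RPKM (0.082). Drosha, the nuclease that cuts miRNA hairpins such as that of miR-675, fell from 6.08 to 3.35 RPKM (limma adjusted p = 0.040), and Elavl1, whose protein HuR binds H19, was at 10.8 and 9.76 RPKM (0.60). These calls depended on the libraries: limma called 0 of the 40 genes without NICeCA replicate 1 (4 higher and 8 lower at an unadjusted p under 0.05), 0 without NICeCA replicate 2 (4 higher and 9 lower at an unadjusted p under 0.05), and 1 higher and 1 lower without Ctrl replicate 2.

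Of 38 other imprinted genes and imprint regulators, 19 passed the filter, and limma called 1 higher and 5 lower, beside 5.88% and 7.68% of all rows tested. The median log2 fold change was -0.33, against -0.05 over all rows. Cdkn1c, a maternally expressed cell cycle inhibitor, rose from 0.686, 0.401 and 0.436 RPKM to 1.83, 1.72 and 1.52 RPKM (limma log2 fold change 0.84, SE 0.15, adjusted p = 0.021). Besides Airn, the antisense RNAs Kcnq1ot1 and Nespas fell, Kcnq1ot1 from 3.16 to 1.03 RPKM (limma adjusted p = 0.026) and Nespas from 3.57 to 0.805 RPKM (0.036). The Nespas row overlaps that of Gnas on the other strand, so reads of these 2 rows may be shared if strand was not used in counting. Among the regulators, Zfp57, which guards imprints, fell from 2.94 to 1.44 RPKM (limma adjusted p = 0.045), and Dnmt3a, a DNA methyltransferase, fell from 6.45 to 3.93 RPKM (0.022). The most abundant genes of each role did not pass the test: Gnas was at 49.2 and 43.1 RPKM (limma adjusted p = 0.36) and Trim28, a partner of Zfp57, at 47.9 and 39.7 RPKM (0.23). Limma called 0 of the 19 genes without NICeCA replicate 1 (2 higher and 6 lower at an unadjusted p under 0.05), 0 without NICeCA replicate 2 (2 higher and 5 lower at an unadjusted p under 0.05), and 1 higher and 2 lower without Ctrl replicate 2. The RNA levels do not give allelic origin.

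**Figure D5:**
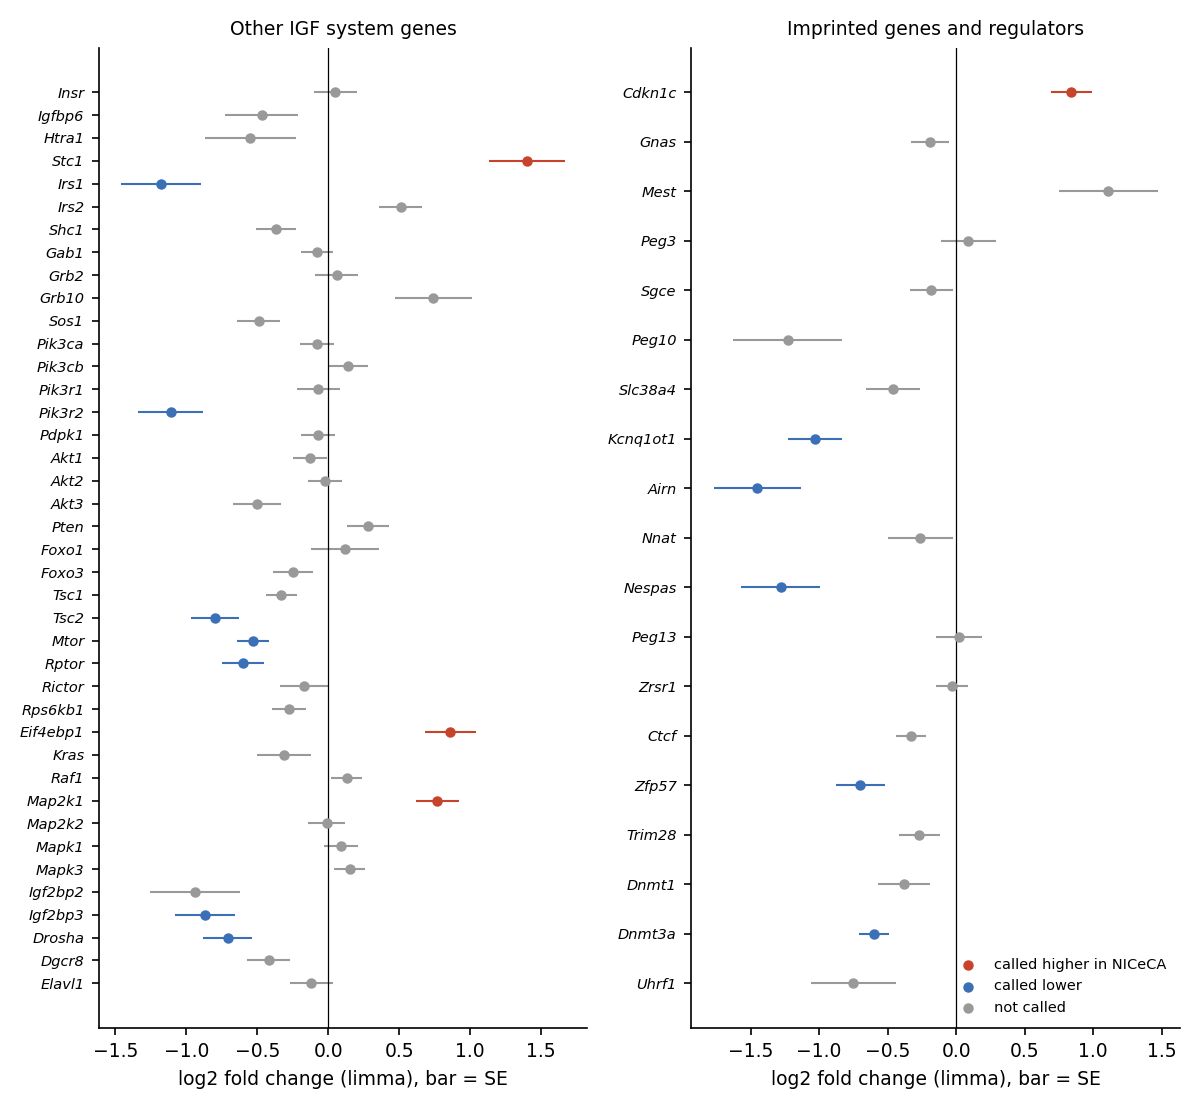
Limma log2 fold change, NICeCA against Ctrl (n = 3 each), with its SE, for the 40 other IGF system genes (left) and the 19 imprinted genes and regulators (right) that passed the filter. Stc1, Eif4ebp1, Map2k1 and Cdkn1c were called higher (red), 12 genes were called lower (blue), and the rest were not called (grey).

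Because NICeCA mice express the Notch1 intracellular domain, which acts on DNA through RBPJ, the promoters were searched for the RBPJ core TGGGAA on either strand, from 250 bases before to 50 after each RefSeq start. Windows were found for 8 of the 9 genes, 11 in all. H19 had no window, so its promoter was not searched. The core was in 4 of them: 2 of the 4 Igf2 windows, the Igf1 window and the Igf1r window. Over all 32851 mouse windows of that length 25.6% held it. Igf2r and the 4 binding proteins had no match in these letters, and neither had the window of the Notch target Nrarp. The 250 bases before the start of Igf1 and Igfbp3 are printed from RefSeq (GRCm38.p6) as a window with the core and a window without it, the core in capitals as it reads on the strand of the gene. The Igf1 start used there lies inside the row and is not its first base.
Igf1, chr10:87860861-87861110, plus strand: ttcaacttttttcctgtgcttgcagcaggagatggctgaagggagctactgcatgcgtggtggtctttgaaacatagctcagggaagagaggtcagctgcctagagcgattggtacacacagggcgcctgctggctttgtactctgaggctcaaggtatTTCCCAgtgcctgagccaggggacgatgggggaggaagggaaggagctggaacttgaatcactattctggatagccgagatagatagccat
Igfbp3, chr11:7213924-7214173, minus strand: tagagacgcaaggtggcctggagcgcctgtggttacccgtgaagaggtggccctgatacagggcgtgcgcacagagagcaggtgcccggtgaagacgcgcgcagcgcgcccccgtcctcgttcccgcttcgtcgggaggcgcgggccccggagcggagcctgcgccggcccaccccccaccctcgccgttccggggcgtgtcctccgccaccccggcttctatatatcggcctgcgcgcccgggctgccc
The Igf1 stretch has 5 CpG dinucleotides and a GC content of 52.8%, near the medians of 6 and 52.4% over the same stretch of all windows, whereas that of Igfbp3 has 32 and 73.2%.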

How the data were processed

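Bulk RNA-seq of TECs was analysed from 3 Ctrl and 3 NICeCA libraries. According to the study's methods, ribosomal RNA was removed and paired reads were made. TopHat2 and the build mm9 are named in the notes of the submitters on processing. For the counting tool and its use of strand, nothing was given in the sources used here. The deposited values are RPKM per row, made by the authors with no pooling of replicates. Of 21665 rows matched by symbol, 99.3% overlapped their gene on GRCm38, so positions are given as GRCm38. RPKM times row length gave whole reads (100.0% of low values within 0.05), which put 29818454 to 30769916 reads on RefSeq rows in Ctrl and 27793301 to 29194187 in NICeCA libraries; arithmetic on these reads covers counting error only.

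Log2(RPKM + 1) of RefSeq rows with a mean of at least 1 RPKM (12320) was tested by a two-sided moderated test with a mean-variance trend (limma 3.58.1, R 4.3.3; Benjamini-Hochberg adjusted p under 0.05), which gave 725 higher and 946 lower rows. The script was tested on simulated data. SEs of member differences come from the group SDs. Group differences of the 9 genes and of rows that share their reads were not tested. Genes named were the 9 genes, rows within 100 kb of H19 or Igf2, FANTOM3 rows over H19, Igf2 or Igf2r, called genes of both lists with the most abundant tested gene of each role, and the 5 genes most like each of H19, Igf2 and Igf1, of which 1 is not reported here. The members and lists were chosen with earlier results of these data known. Seed matches, and ratios to marker levels, were added after the levels were seen. UTRs came from GENCODE M21. The study's methods speak of pairs of mice without saying what paired them. P-values measure the spread between these libraries.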

Additional observations from a re-analysis of the deposited data

How the results depend on the processing

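Outside Igf2, whose difference was near 0, all 80 values of the other 8 genes kept their direction under the alternatives. These left out a library, or used TMM scaling, quantile normalization, a pseudocount of 0.1 or reads in place of RPKM. For H19, Igf1, Igf1r, Igfbp3 and Igfbp5, whose groups did not overlap, leaving out a library could not turn the direction. The genes were also chosen on this contrast, so the count is a description only. Leaving out a library gave -1.72 to -1.33 for H19 and 1.44 to 2.08 for Igfbp3 on the log2 scale. Igfbp7 went from 0.67 to 1.12 without Ctrl replicate 1, 0.43 without Ctrl replicate 2 and 0.44 without Ctrl replicate 3, and Igfbp4 from -0.48 to -0.23 without Ctrl replicate 2. Ratios to marker levels, an alternative chosen after seeing the data, turned the direction of Igf2r (0.57), Igf1 (0.09), Igf1r (0.65) and Igfbp4 (0.47) with fibroblast markers, and of Igfbp7 with endothelial (-0.11) and pericyte (-0.38) markers.

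Counts of calls were less stable. Residuals of same-numbered libraries correlated at 0.12, -0.34 and -0.18, and those of all pairs of a Ctrl and a NICeCA library at -0.34 to 0.44. Residuals from means of 3 libraries depend on each other, so these values cannot say whether libraries were paired. With a replicate block limma called 327 rows higher and 209 lower, 1 and 1 of the other IGF system genes, and 3 imprinted genes lower. Quantile normalization gave 434 and 319 rows, 1 and 2 IGF system genes, and 2 imprinted genes lower. Without a filter there were 260 and 105 rows, 1 and 0 IGF system genes (5 and 15 at an unadjusted p under 0.05), and 2 higher and 0 lower imprinted genes (6 and 7 at an unadjusted p under 0.05). A mean of at least 5 RPKM left 579 lower rows, 4 lower IGF system genes, and 0 higher and 2 lower imprinted genes. Leaving out 1 library gave 26 to 913 rows higher and 1 to 832 lower, 0 to 4 and 0 to 7 IGF system genes, and 0 to 2 and 0 to 5 imprinted genes. The lowest counts came without NICeCA replicate 2 (26 and 1 rows), then NICeCA replicate 1 (91 and 14) and Ctrl replicate 2 (242 and 137); a fit without a library has fewer samples. The 43.4% of calls that were higher became 58.2% under TMM scaling (964 and 691 rows), 57.6% under quantile normalization and 54.9% with voom on the recovered reads (967 and 793). Of the 16 called list genes, 6 were called with the block, 14 under TMM scaling, 15 with voom and 2 without a filter, and none changed sign under these alternatives. With 3 libraries a group, small differences were beyond what this design could resolve, and low rows such as Igf2 and Igfbp5 rest on few reads.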
